A study of Mus musculus with 15 samples.

Results

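Transthyretin (Ttr) was read at 2 widely separated levels in these cortical RNA-seq libraries, and 4 of the 15 libraries carried the high level. The 4 high-Ttr libraries are Sham replicate 1, Sham replicate 2, HF-HI replicate 2 and HF-HI replicate 5, and the remaining 11 are called the other libraries. The 4 were chosen by a single measured value: a variance-stabilized (VSD) value of the Ttr transcript ENSMUST00000075312 above 12 placed a library in the high set. VSD is a log2-like scale on which differences between low counts are compressed, so every VSD difference is given beside normalized counts, which are reads divided by a size factor for the depth of the library. The sets were drawn from the data and are not groups of the study, and the level of Ttr is therefore described and not tested.

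The tissue was cortex dissected from male C57BL/6 mice at a labelled age of 12 weeks, taken 1 month after the procedure, and its total RNA was sequenced. There were 7 libraries of Sham mice, which were anesthetized without being struck, and 8 libraries of mice given high-frequency head impact (HF-HI), a closed-head model in which anesthetized mice receive repeated impacts on consecutive days. Each set contains both procedures, with 2 of 7 Sham and 2 of 8 HF-HI libraries in the high set. The labels do not state whether each library is a separate animal, and p-values measure the spread between these libraries.

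The choroid plexus is a fronded tissue within the brain ventricles, made of a secretory epithelium over a vascular stroma. Its epithelium makes cerebrospinal fluid, and it is the main site of Ttr synthesis in the brain, where the protein carries thyroxine and, with retinol-binding protein, retinol. The tissue lies close to the cortex and hippocampus during dissection, and neurons and glia of the cortex make little Ttr. In bulk RNA, more cells of a type cannot be told apart from more RNA per cell.

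Ttr was read at 6589 normalized counts in Sham replicate 1, 6685 in Sham replicate 2, 8663 in HF-HI replicate 2 and 8165 in HF-HI replicate 5. Among the other 5 Sham libraries it was 176 in replicate 3, 75.3 in replicate 4, 35.0 in replicate 5, 85.8 in replicate 6 and 136 in replicate 7. Among the other 6 HF-HI libraries it was 131 in replicate 1, 58.5 in replicate 3, 33.9 in replicate 4, 114 in replicate 6, 161 in replicate 7 and 21.04 in replicate 8. No library lay between the sets. The mean was 7525 ± 1047 (SD, n = 4) against 93.4 ± 53.7 (SD, n = 11), a ratio of 80.5. The lowest high library, Sham replicate 1, stood 37.4-fold above the highest other library, Sham replicate 3, and their VSD values were 13.02 and 10.45. A VSD of 12 corresponds to 2494 normalized counts, so any cut across that gap would have given the same sets. The 4 high libraries spanned 1.31-fold among themselves, while the 11 others spanned 8.37-fold. The counts behind these values were 5630 to 9935 reads per high library and 17 to 166 per other library. At its highest, Ttr took 0.125% of the reads in listed transcripts. The level did not follow the procedure: the Sham median was 136 and the HF-HI median 123.

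**Figure D1:**
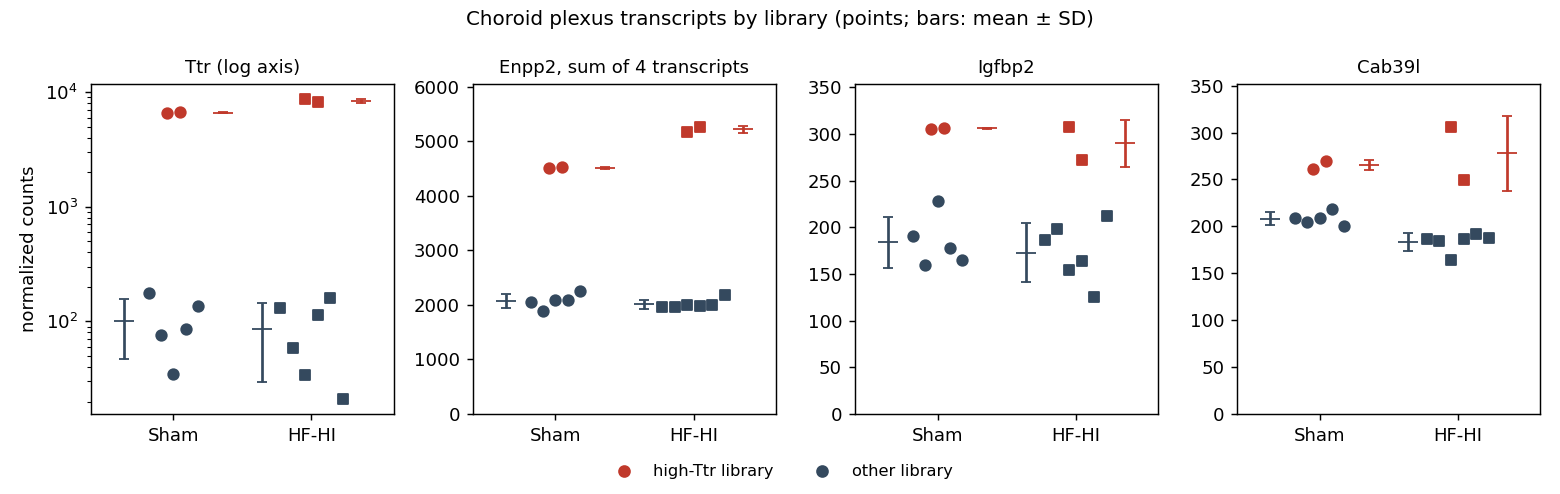
Normalized counts of Ttr (log axis), of the 4 Enpp2 transcripts summed, of Igfbp2 and of Cab39l in each library, by procedure; red marks the 4 high-Ttr libraries, dark marks the 11 others, and bars give the mean ± SD of each set within a procedure (2 high libraries in each, 5 other Sham and 6 other HF-HI libraries). In all 4 panels every red point lies above every dark point, with Enpp2 at 4502 to 5265 against 1897 to 2248.

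The shallowest library, HF-HI replicate 4, had 3496103 reads in listed transcripts and the deepest, Sham replicate 4, had 10582858, and the size factors of the high set, from 0.650 to 1.43, lay inside the range of the others. With Ttr left out, HF-HI replicate 2 stood apart on the leading principal component (14.3% of the variance), at 11.8 against −2.74 to 2.16 in the other 14 libraries. It also held 72776 normalized counts of Gm42418, a noncoding transcript known to overlap ribosomal RNA sequence, against 572 to 2604 in the 11 other libraries and 1163 to 1439 in the other 3 high ones. Lars2, which encodes a mitochondrial leucyl-tRNA synthetase, was at 5130 in that library, with 79.2 to 107 in the other high libraries. Both transcripts were picked after their values were seen. Because this library is 1 of 4 in the high set, calls that change without it are named beside the result.

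Apart from Ttr, 10369 transcripts were compared between the sets with limma, with procedure as a covariate. Of these, 5 transcripts passed a Benjamini-Hochberg adjusted p of 0.1, which is 0.0482% of all tested, and all 5 were higher in the high-Ttr libraries. Of the 5, 3 belong to Enpp2, and the others are Cab39l and Igfbp2. The Enpp2 transcript ENSMUST00000173516 is listed only through its level in the high libraries, as given below. At an unadjusted p under 0.05, 732 transcripts differed (7.06%), with 343 higher (3.31%) and 389 lower (3.75%). The 4 high libraries lay entirely above the 11 others for 20 transcripts (0.193%), and entirely below for 9 (0.0868%). The called transcripts thus came from 3 genes.

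**Figure D2:**
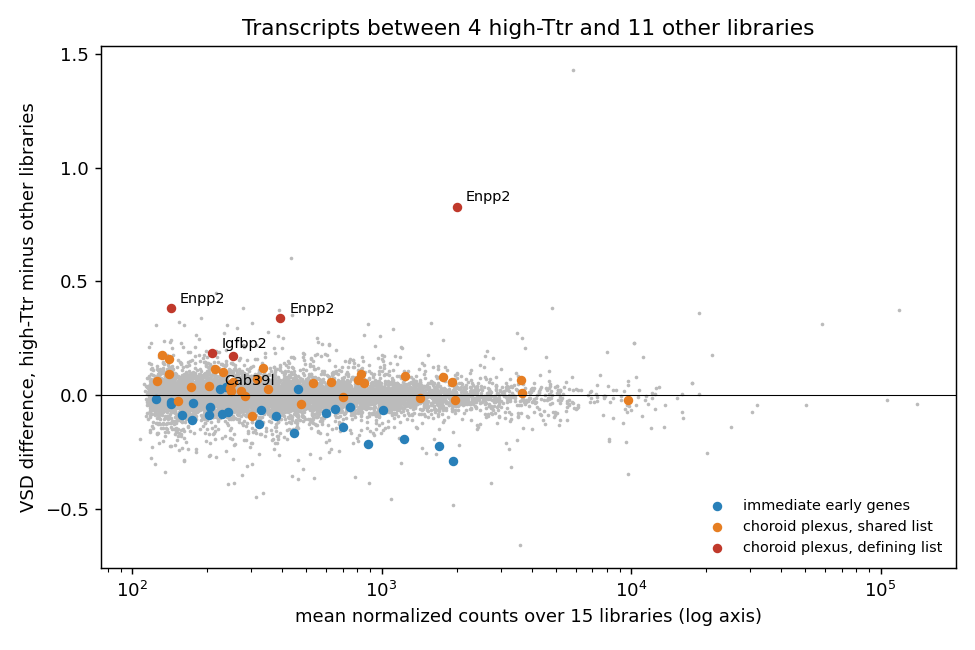
VSD difference (high-Ttr minus other libraries) of 10369 transcripts against mean normalized counts (log axis); grey points are all transcripts, colours mark 3 gene lists, and the 5 transcripts past an adjusted p of 0.1 are named. The main Enpp2 transcript, at 0.83, stands above the rest except for Gm42418, at 1.43, whose high mean came from HF-HI replicate 2.

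Enpp2 encodes autotaxin, a secreted lysophospholipase D that produces lysophosphatidic acid, and it is made by the choroid plexus epithelium and by oligodendrocytes. The gene spans chr15:54838901-54920018 of GRCm38, and 4 of its transcripts were listed. The main one, ENSMUST00000041591, was at 3419 normalized counts in Sham replicate 1, 3336 in Sham replicate 2, 3733 in HF-HI replicate 2 and 3890 in HF-HI replicate 5. In the 11 other libraries it ran from 1355 through a median of 1401 to 1570. The sets did not overlap, and the gap between them was wide against the spread inside either one. The mean was 3595 ± 261 (SD, n = 4) against 1426 ± 72.6 (SD, n = 11), a log2 ratio of 1.33. The VSD difference was 0.83 (SE 0.028, limma adjusted p = 3.1e-10).

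The other Enpp2 transcripts were higher as well, and 2 of the 3 passed the test. ENSMUST00000173516 rose from 85.7 ± 27.1 to 299 ± 39.0 normalized counts (SD; log2 ratio 1.81, limma adjusted p = 0.00034). Its mean in the other libraries lies below the lowest mean of any transcript in the table. It is therefore listed only through its level in the high libraries, and its call is not separate support. ENSMUST00000171545 rose from 308 ± 54.3 to 624 ± 91.3 (log2 ratio 1.02, limma adjusted p = 0.0052). The fourth, ENSMUST00000167541, was at 260 to 479 in the high libraries and 193 to 286 in the others. Its sets overlapped, and its adjusted p was 0.23 in limma. Reads shared by these transcripts were divided among them by an estimate, so their sum is the firmer quantity. Summed over the 4 transcripts, Enpp2 was at 4866 ± 408 against 2039 ± 107 normalized counts, a log2 ratio of 1.25 (limma adjusted p = 7.5e-11 over 7868 genes).

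In the 4 high libraries the excess of Enpp2 stood in a nearly constant proportion to that of Ttr. The summed Enpp2 counts above the mean of the other libraries amounted to 37.9 for every 100 Ttr counts above theirs in Sham replicate 1, 37.8 in Sham replicate 2, 36.5 in HF-HI replicate 2 and 39.96 in HF-HI replicate 5. The mean was 38.04 ± 1.42 (SD, n = 4). Ttr chose these libraries and spanned only 1.31-fold among them, so the proportion is described and not tested. Both HF-HI libraries held more Ttr than both Sham ones, and they also held more Enpp2, at 5170 and 5265 against 4502 and 4528. Within Sham, replicate 2 held more of both genes. Within HF-HI the order was reversed: replicate 2 held more Ttr than replicate 5, at 8663 against 8165, but less Enpp2. The ratio for Igfbp2 was lower and more spread, at 1.16 to 1.96 for every 100 Ttr counts, and that for Cab39l was 0.683 to 1.30. Among the 11 other libraries Enpp2 stayed within a narrow band while Ttr did not. HF-HI replicate 8 had the lowest Ttr, at 21.04, with summed Enpp2 at 2187, and the highest sum among the 11 was 2248 in Sham replicate 7, where Ttr was 136.

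**Figure D3:**
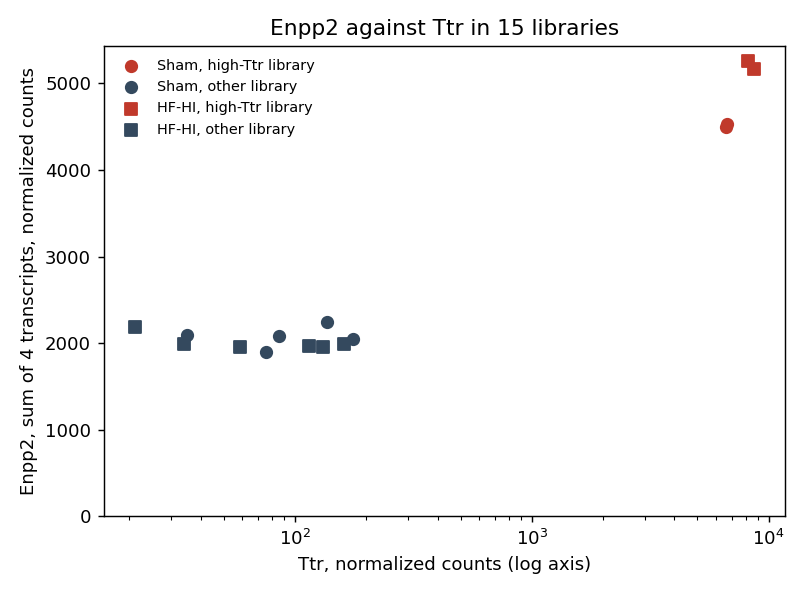
Normalized counts of Enpp2, summed over 4 transcripts, against those of Ttr (log axis) in 15 libraries; circles are Sham, squares are HF-HI, and red marks the high-Ttr libraries. The 11 dark points lie level between 1897 and 2248 while Ttr spans 21.04 to 176, and the 4 red points lie apart at 4502 to 5265.

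Igfbp2 encodes an insulin-like growth factor binding protein that is abundant in choroid plexus epithelium and is also made by astrocytes. It lies at chr1:72824503-72852474, and ENSMUST00000047328 was its only listed transcript. It was at 306 normalized counts in Sham replicate 1, 306 in Sham replicate 2, 308 in HF-HI replicate 2 and 272 in HF-HI replicate 5, against 125 to 228 with a median of 178 in the others. All 4 high libraries lay above all 11 others. The mean was 298 ± 17.3 against 178 ± 29.0 (SD), a log2 ratio of 0.74, with a VSD difference of 0.18 (SE 0.027, limma adjusted p = 0.019). The call was lost without Sham replicate 2 (limma adjusted p = 0.13) and without HF-HI replicate 2 (0.15). Over all alternatives run it was lost in 5, and with a replicate block its adjusted p was 0.997 in limma.

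Cab39l encodes a scaffold protein of the MO25 family, which activates STE20-type kinases acting on ion cotransporters. It lies at chr14:59440981-59548903 (ENSMUST00000022553), and its counts were 261 in Sham replicate 1, 269 in Sham replicate 2, 306 in HF-HI replicate 2 and 250 in HF-HI replicate 5. The other libraries ran from 164 through a median of 192 to 219, with no overlap. The mean was 272 ± 24.3 against 195 ± 15.3 (SD), a log2 ratio of 0.48, with a VSD difference of 0.12 (SE 0.017, limma adjusted p = 0.019). The 3 Enpp2 transcripts and Cab39l were called in every one of 15 fits that each left out 1 library. Over all alternatives run, however, Igfbp2 lost its call in 5 and Cab39l in 3. Enpp2 transcripts ENSMUST00000171545 and ENSMUST00000173516 lost theirs in 2 each. The main Enpp2 transcript kept its call in all of them.

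The promoter windows of Igfbp2 and Cab39l are shown because these genes were called between the sets that Ttr defined. RefSeq windows (GRCm38.p6) covering 250 bases before to 50 after a start site were found for both, and Enpp2 was not in the table. They were searched on both strands for TAATCC, the core recognized by bicoid-class homeodomain factors such as Otx2, which is a regulator of choroid plexus epithelium. Neither window held these letters on either strand, while 7.06% of 32851 RefSeq promoter windows of that length do, so no base is in capitals. The Igfbp2 window is on the plus strand at chr1:72824230-72824529, with its start site 23 bases from that of the listed transcript, and the Cab39l window is on the plus strand at chr14:59440713-59441012, with its start site 18 bases away.
Igfbp2: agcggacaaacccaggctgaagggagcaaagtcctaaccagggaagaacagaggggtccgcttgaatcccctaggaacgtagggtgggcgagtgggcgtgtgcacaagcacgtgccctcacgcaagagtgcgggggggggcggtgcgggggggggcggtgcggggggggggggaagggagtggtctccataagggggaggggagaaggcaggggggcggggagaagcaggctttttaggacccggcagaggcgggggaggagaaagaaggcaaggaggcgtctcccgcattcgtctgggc
Cab39l: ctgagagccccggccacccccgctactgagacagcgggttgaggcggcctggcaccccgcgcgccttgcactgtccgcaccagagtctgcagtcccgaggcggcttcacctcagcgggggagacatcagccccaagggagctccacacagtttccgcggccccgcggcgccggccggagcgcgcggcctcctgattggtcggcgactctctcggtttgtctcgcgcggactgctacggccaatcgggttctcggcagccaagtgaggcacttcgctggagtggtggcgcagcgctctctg

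The label of choroid plexus was set beside 40 genes regarded as defining its epithelium, a list written with earlier results of these data known. Besides Ttr, only Enpp2 and Igfbp2 had listed transcripts, and the lowest mean of any transcript in the table was 107.9 normalized counts. Folr1, Kl, Clic6, Otx2, Kcnj13, Aqp1 and the rest of the list were not analysed here. The 5 transcripts of those 2 genes were all higher at an unadjusted p under 0.05, against the 3.31% given above. Of them, 4 passed the adjusted threshold, against 0.0482%. Among the 5, 4 are transcripts of Enpp2 that share reads, so the tally covers 2 genes and not 5 separate ones. ENSMUST00000173516 is listed only through the high libraries. These counts describe the label and do not test it. Their summed level was 4808 to 5537 normalized counts in the high libraries and 2056 to 2413 in the others. The name therefore rests on Ttr, which chose the libraries, and on 2 further genes that other brain cells also express.

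A second list, also written with earlier results of these data known, held 36 genes that the choroid plexus shares with other brain cells. Of them, 26 were listed, with 34 transcripts. Of these, 11 were higher at an unadjusted p under 0.05 and 0 were lower, against 3.31% higher and 3.75% lower over all transcripts, and only Cab39l passed the adjusted threshold in limma. The median VSD difference was 0.05, against 0.00024 over all transcripts. The transcripts were those of Cab39l, Vat1l, Igf2, Slc12a2, Igf2r, Arl6ip1, Slco1c1, Slc4a2, Ctsd, Htr2c and Mt3. Slc4a2 had a mean of 107.7 in the other libraries, below the lowest mean in the table, so its listing depended on the high libraries. Igf2, an insulin-like growth factor made by choroid plexus and meninges, was at 195 to 217 in the high libraries and 59.9 to 173 in the others. Its sets did not overlap (log2 ratio 0.77, limma adjusted p = 0.31). Vat1l was at 390 to 428 against 257 to 386, also without overlap (log2 ratio 0.40, limma adjusted p = 0.30). Slc12a2, the sodium-potassium-chloride cotransporter of the apical membrane of this epithelium, was at 1232 to 1420 against 1066 to 1290, and these ranges overlapped (log2 ratio 0.16, limma adjusted p = 0.52). Htr2c, a serotonin receptor abundant in this epithelium, was at 163 to 205 against 64.0 to 242 (log2 ratio 0.44, limma adjusted p = 0.71). The summed level of the list was 34076 to 36715 in the high libraries and 33098 to 35170 in the others, so the ranges overlapped.

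Genes of neighbouring tissues and of other cell types were read from further lists, whose counts stand beside 3.31% higher and 3.75% lower over all transcripts at an unadjusted p under 0.05. Of 24 genes of the choroid plexus stroma and meninges, 4 were listed (Col4a1, Fn1, Col4a2 and Igfbp6), and at an unadjusted p under 0.05 in limma 0 of their 4 transcripts differed. Their summed level was 1172 to 1308 in the high libraries and 1079 to 1329 in the others. Of 19 ependymal genes 4 were listed, with 4 transcripts of which 1 was higher and 0 lower, and their summed level was 845 to 1010.1 in the high libraries and 670 to 942 in the others. The higher one, Pltp, a phospholipid transfer protein, was at 329 ± 36.6 against 250 ± 34.2 (SD; log2 ratio 0.39, limma adjusted p = 0.56), and Nnat, Sox2 and Tppp3 had log2 ratios of 0.37, −0.10 and 0.08. Striatal genes, which lie beneath the dissected cortex, had 52 transcripts with 3 higher and 0 lower at an unadjusted p under 0.05. Those 3 were single transcripts of Gnal, Foxp1 and Ppp1r1b. Summed over listed transcripts, these genes had log2 ratios of 0.06, 0.05 and 0.24, with unadjusted p above 0.05 in limma for each. The summed striatal level was 27755 to 31417 in the high libraries, inside the range of 22099 to 34528 in the others. The hippocampal list had 14 transcripts with 1 higher and 2 lower. For the lists of thalamus and hypothalamus, microglia, blood and interneurons, 0 transcripts passed an unadjusted p of 0.05 in limma. Oligodendrocyte genes, relevant because oligodendrocytes also make Enpp2, had 37 transcripts with 2 higher and 1 lower. Their summed level was 38700 to 45344 in the high libraries and 36986 to 44305 in the others. Astrocyte genes, relevant to Igfbp2, had 39 transcripts with 2 higher and 1 lower, at 86270 to 87295 in sum against 86472 to 90901. Upper layer cortical genes had 23 transcripts with 0 higher and 2 lower (Pou3f2 and Cux2) at an unadjusted p under 0.05, and deep layer genes had 23 with 0 higher and 1 lower (Deptor). Endothelial and pericyte genes had 17 with 1 higher, which was again Pltp. Of 15 mitochondrial transcripts 1 was lower (mt-Atp8), with a list median of −0.10, and their summed level was 267458 to 502896 in the high libraries and 278672 to 503065 in the others. None of the transcripts in the lists of this paragraph passed an adjusted p of 0.1 in limma.

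**Figure D4:**
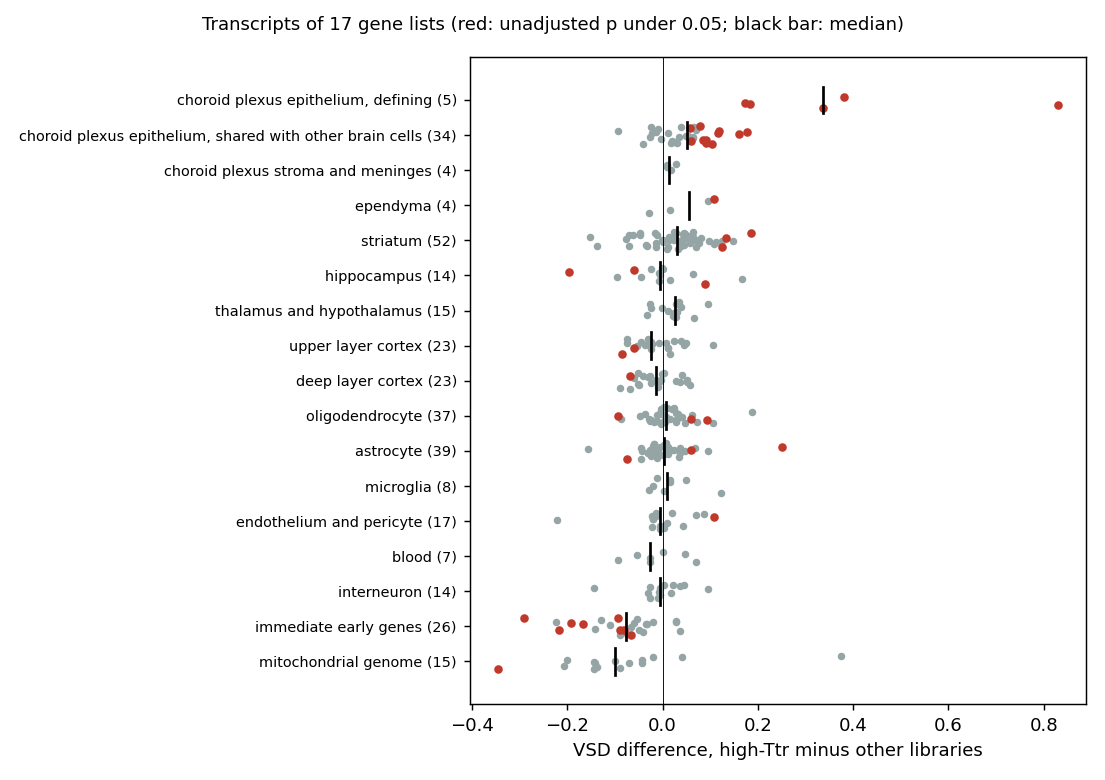
VSD difference (high-Ttr minus other libraries) of each listed transcript of 17 gene lists, with the number of transcripts in parentheses; red points have an unadjusted p under 0.05 in limma and black bars are medians. The median was 0.34 for the defining choroid plexus list, 0.05 for the shared list and −0.08 for immediate early genes.

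Other transcripts with the smallest p-values were not on the defining list. Npc2, a lysosomal and secreted cholesterol-binding protein, was at 332 to 372 normalized counts in the high libraries and 257 to 310 in the others, without overlap (log2 ratio 0.30, limma adjusted p = 0.17). Lama5, a laminin chain of basement membranes, was at 143 to 184 against 110 to 153 (log2 ratio 0.42, limma adjusted p = 0.30). Mut, which encodes methylmalonyl-CoA mutase, was at 322 to 362 against 262 to 315 (log2 ratio 0.24, limma adjusted p = 0.30). Palm (ENSMUST00000046945) was at 250 to 372 against 135 to 245 (log2 ratio 0.54, limma adjusted p = 0.30). Summed over its 2 listed transcripts, Palm was at 803 ± 32.4 against 734 ± 67.6 (SD; log2 ratio 0.13, limma adjusted p = 0.64). Grin1 transcript ENSMUST00000028335, of the obligatory NMDA receptor subunit, was at 586 to 697 against 390 to 563, without overlap (limma adjusted p = 0.18). Summed over its 8 listed transcripts, the gene was at 2583 ± 134 against 2581 ± 107 normalized counts (SD).

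Several transcripts with lower means in the high libraries likewise belonged to genes whose summed level was nearly the same in both sets. Slc6a17, a synaptic vesicle transporter of neutral amino acids, was at 75.0 in Sham replicate 1, 43.3 in Sham replicate 2, 365 in HF-HI replicate 2 and 72.3 in HF-HI replicate 5 for ENSMUST00000029499, against 272 to 578 in the others. Of the high libraries, 3 lay far below the others and HF-HI replicate 2 lay among them. The adjusted p was 0.17 in limma, and without HF-HI replicate 2 it was 0.0018. Summed over its 3 listed transcripts, however, Slc6a17 was at 3329 ± 78.2 against 3367 ± 147. Flna, an actin crosslinker, was at 0 to 269 against 174 to 443 for ENSMUST00000033699, while the sum of 3 transcripts was 603 ± 85.5 against 617 ± 55.8. For Pianp the same pair of comparisons gave 0.701 to 112 against 94.4 to 260, and 245 ± 20.3 against 256 ± 31.8. Rtn4 (ENSMUST00000102841) was at 1522 to 1899 against 1877 to 2768, and its gene at 5404 ± 124 against 5431 ± 200. None of these transcripts passed an adjusted p of 0.1 in limma with all 15 libraries.

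Further transcripts had lower means in the high libraries. Med15, a Mediator subunit, was at 55.3 to 112 against 132 to 188, without overlap, and it had 1 listed transcript (log2 ratio −0.80, limma adjusted p = 0.17). Wasl, an activator of actin nucleation, was at 1103 to 1144 against 1180 to 1343, again without overlap (log2 ratio −0.18, limma adjusted p = 0.30). Mgat5, Sgsm1 and ENSMUST00000107703, which had no entry in the annotation, also lay below all 11 others. Their log2 ratios were −0.39, −0.44 and −0.66. Summed over its 2 listed transcripts, Mgat5 was at 530 ± 21.03 against 570.1 ± 25.9 (SD; log2 ratio −0.10). Utp14b, with overlapping sets, was at 182 to 342 against 285 to 399 (log2 ratio −0.44, limma adjusted p = 0.36).

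Immediate early genes are transcribed by neurons soon after activity. Of their 26 transcripts, 8 were lower and 0 higher at an unadjusted p under 0.05, against 3.75% lower over all transcripts, and 23 of 26 had a negative difference. The median VSD difference was −0.08 (log2 ratio −0.26), and 0 passed an adjusted p of 0.1 in limma. The 8 were 3 transcripts of Homer1, which encodes a postsynaptic scaffold, the transcription factors Egr1, Egr3 and Fosl2, the cytoskeletal regulator Arc and the pentraxin Nptx2. Because 3 of them belong to Homer1, the tally does not cover 8 separate genes. Without Sham replicate 2 the count was 4, and without Sham replicate 1 it was 13. Over all transcripts, calls in either direction then numbered 611 and 756.

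Homer1 (ENSMUST00000102752) was at 1420 in Sham replicate 1, 1197 in Sham replicate 2, 1403 in HF-HI replicate 2 and 1859 in HF-HI replicate 5, against 1633 through a median of 2079 to 2548 in the others. Of the 4 high libraries, 3 lay below all others, and HF-HI replicate 5 lay inside their range but below the other 6 HF-HI libraries (log2 ratio −0.51, limma adjusted p = 0.30). Summed over 4 transcripts, Homer1 was at 3284 ± 356 against 4237 ± 370 (log2 ratio −0.37, limma adjusted p = 0.11). Egr1 was at 527 to 1463 against 907 to 1681 (log2 ratio −0.38, limma adjusted p = 0.65). Arc (ENSMUST00000110009) was at 231 to 1259 against 638 to 1466 (log2 ratio −0.45, limma adjusted p = 0.67), and the sets overlapped for both. The summed level of the list was 7570 and 11704 in the Sham high libraries against 11022 to 14267 in the other Sham libraries. In HF-HI it was 12332 and 14969 against 14599 to 17418, so within each procedure 1 of the 2 high libraries lay below all others.

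**Figure D5:**
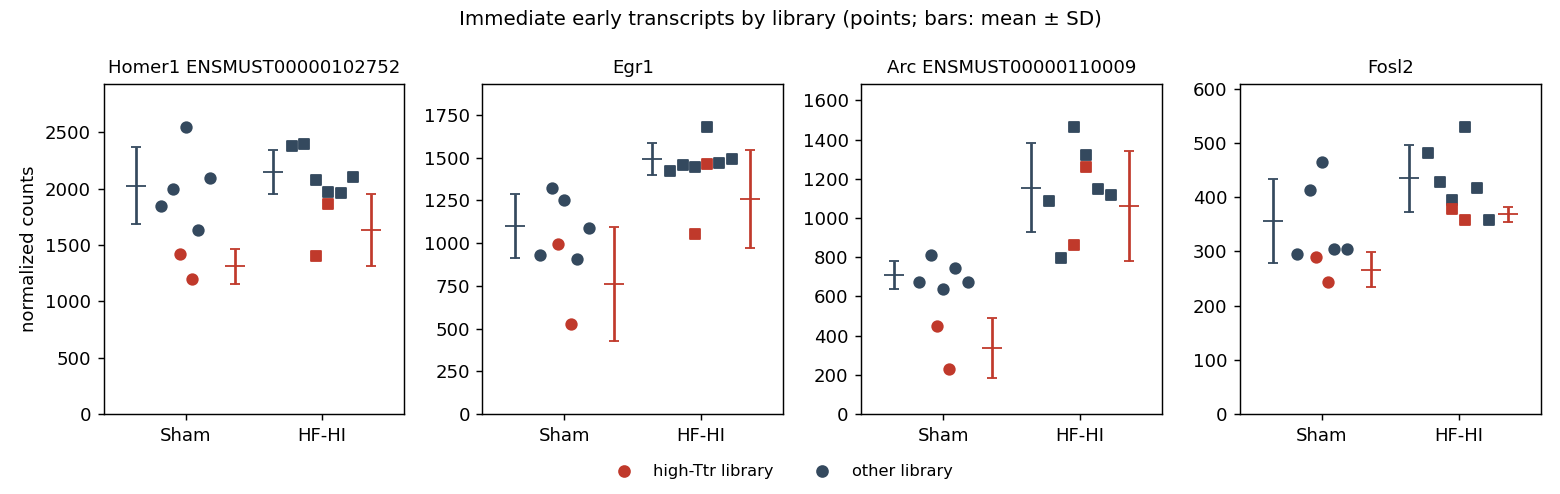
Normalized counts of Homer1 (ENSMUST00000102752), Egr1, Arc (ENSMUST00000110009) and Fosl2 in each library, by procedure; red marks the 4 high-Ttr libraries, dark marks the 11 others, and bars give the mean ± SD of each set within a procedure. For Homer1 both red points lie below the dark ones within each procedure, for Arc and Fosl2 they do so in Sham only, and for Egr1 red and dark points overlap in both.

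Whether the high-Ttr difference depended on the procedure was asked with an interaction term. At an adjusted p of 0.1 in limma 0 transcripts differed, and 404 (3.90%) did at an unadjusted p under 0.05. These counts rested on single libraries: without HF-HI replicate 5 they were 41 and 986, without HF-HI replicate 2 they were 1 and 263, and the adjusted count was 14 without Sham replicate 1, 4 without Sham replicate 2 and 1 without HF-HI replicate 3. The 5 with the smallest p were B3galt5, Nrxn2, Nipa2, Cav2 and ENSMUST00000089182, none of which is on a choroid plexus list. Nrxn2 (ENSMUST00000137166) was at 25.2 and 37.8 in the Sham high libraries and at 382 and 164 in the HF-HI ones, against 86.0 to 212 in the others. For the main Enpp2 transcript the VSD difference was 0.76 within Sham and 0.89 within HF-HI. In the same order, it was 0.23 and 0.44 for Enpp2 ENSMUST00000171545 and 0.09 and 0.25 for ENSMUST00000167541. These Enpp2 transcripts, which share reads, were among the 404 counted above, and none passed the adjusted threshold. Enpp2 ENSMUST00000173516, Igfbp2 and Cab39l were not among the 404. The difference was 0.39 and 0.37 for ENSMUST00000173516, 0.18 in both for Igfbp2, and 0.09 and 0.14 for Cab39l. Within Sham, 399 transcripts (3.85%) passed an unadjusted p of 0.05, and 788 (7.60%) did within HF-HI, where HF-HI replicate 2 is 1 of 2 high libraries.

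The comparison of HF-HI with Sham was then made without and with the high-Ttr set as a term. At an unadjusted p under 0.05 limma gave 916 transcripts (8.83%) without the term and 897 (8.65%) with it, and 851 were in both. Without the 4 libraries the count was 677 (6.53%), of which 470 were among the 916. At an adjusted p of 0.1 all 3 fits gave 0 in limma, and the smallest adjusted p was 0.21, 0.16 and 0.18 in turn. For the main Enpp2 transcript the residual SD fell from 0.396 to 0.048 VSD with the term, and the HF-HI minus Sham difference went from 0.0012 to 0.031. The median HF-HI minus Sham difference of the 26 immediate early transcripts was 0.10 in each of the 3 fits. It was positive at an unadjusted p under 0.05 for 16, 16 and 14 of them. Over all 10369 transcripts, 512, 494 and 383 were positive at that threshold in the same fits.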

How the data were processed

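Ribosomal RNA was depleted and stranded libraries were made from total RNA. The authors aligned them to mm10 with STAR, used eXpress to estimate transcript counts, and deposited variance-stabilized values from DESeq2 on a log2 scale for 10370 transcripts. All columns were matched to samples by name. The transformation was inverted to normalized counts and reads: 100% of values were whole reads within 0.1, with a count of 0 at a VSD of 9.81. The sums cover listed transcripts, not whole libraries. Transcripts were matched to GENCODE M21 (GRCm38), and 10241 had an entry. High and other libraries were compared in limma 3.58.1 (R 4.3.3; eBayes with trend, two-sided, Benjamini-Hochberg over 10369 transcripts, threshold 0.1) with procedure as covariate and Ttr left out. The code was tested on simulated data. Named transcripts were all those of the defining choroid plexus list, the 12 higher and 12 lower with the smallest p, and the 5 smallest interaction p-values. A transcript that this rule names is not reported here. Gene lists received counts and medians only. Members and lists were chosen with earlier results of these data known. Alternatives changed the normalization, scale, test, filter, weights, covariates and samples, and summing reads per gene was added after the data were seen. Replicate numbers did not pair libraries: the correlations of same-numbered deviations were −0.11 to 0.11.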

Additional observations from a re-analysis of the deposited data

Results flagged for a closer look

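In groups of 4 to 8 libraries, the lowest or highest value was set against the range of its group for 30 transcripts, which made 90 checks. A rate of 1 in 20 groups would flag 4.5 of 90, and 7 stood apart. Most of these transcripts were chosen for a small p between the sets or for the interaction, and the groups share libraries. That rate therefore does not hold for these checks, and the 7 are not read against it. Igfbp2 in HF-HI replicate 5 was at 272 normalized counts, below 306 to 308 in the other high-Ttr libraries. Lama5 in HF-HI replicate 5 was at 184.1, above 116 to 143 in the other HF-HI libraries. Slc6a17 (ENSMUST00000029499) in HF-HI replicate 5 was at 72.32, below 291 to 578 in the other HF-HI libraries, and in HF-HI replicate 2 it was at 364.7, above 43.3 to 75.0 in the other high-Ttr libraries. Pianp (ENSMUST00000162170) was at 0.701 in Sham replicate 1, below 94.4 to 214 in the other Sham libraries, and at 1.539 in HF-HI replicate 2, below 100.3 to 260 in the other HF-HI libraries. Nrxn2 (ENSMUST00000137166) in HF-HI replicate 2 was at 381.6, above 90.7 to 167 in the other HF-HI libraries. The cause was not tested in any of the 7.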

How the results depend on the processing

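No result changed direction under any alternative run, and the cause of the changes given here was not tested. Calls at an adjusted p of 0.1 numbered 5 as reported, 2 among transcripts at or above the median mean, 12 with library weights, 1 and 3 in Sham or HF-HI libraries only, 3 genes with reads summed per gene, and 4 to 8 with 1 library left out. Without Sham replicate 1 there were 8, which added Mgll, Arid1b and the fourth Enpp2 transcript. Calls at an unadjusted p under 0.05 numbered 393 among those of higher mean and 573 to 826 with 1 library left out. The median of the defining choroid plexus list was 1.02 and 1.00 on a log2 scale with 1 or 10 added to the counts, 0.98 in voom, 0.58 among those of higher mean, 0.23 and 0.37 in Sham or HF-HI libraries only, and 0.30 to 0.36 with 1 library left out. Among those of higher mean 2 of its transcripts were listed and called. The shared list had 6 calls among those of higher mean and 4 in Sham only. Immediate early transcripts called lower numbered 5 without the procedure term, 5 in Sham only, 2 in HF-HI only, and 4 to 13 with 1 library left out. For these fits the share of all transcripts called in the same direction is not given, and likewise for the shared list. The counts are therefore not read as results about either list. For HF-HI minus Sham, calls at an unadjusted p under 0.05 were 504 among those of higher mean and 561 with the size factor as a covariate, and adjusted calls were 4 per gene and 0 to 2 with 1 library left out. For the interaction, adjusted calls ran from 0 to 41 (41 without HF-HI replicate 5, 14 without Sham replicate 1, 4 without Sham replicate 2) and unadjusted ones from 263 (without HF-HI replicate 2) to 986 (without HF-HI replicate 5). Leaving out a high-Ttr library leaves 1 in its procedure, which is then assumed to vary like the rest.

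With a replicate block, although the numbers did not pair the libraries, 1 transcript, of Enpp2, was called at an adjusted p of 0.1 and 423 at an unadjusted p under 0.05. The shared list then had 5 calls, again without the share of all transcripts in that direction. HF-HI minus Sham had 1 adjusted call, and the interaction had 628 unadjusted ones. The precision of low counts was set by depth: a single read was worth 0.679 normalized counts in Sham replicate 4 and 1.997 in HF-HI replicate 4.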
